A study of Mus musculus with 4 samples.

Results

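Signals of 38 genes of fatty acid synthesis, oxidation and storage were compared between resident liver stem cell (RLSC) lines and the mouse line MMH-D3, which is hepatocytic and differentiated. A probe set counted as a gene's own where the platform annotation gave it that single symbol. This rule gave 84 of the 45101 probe sets to 37 of the 38 genes, out of 18193 genes named in this way. Acsl1 had no such probe set and was not analysed here. Of the 37 genes, 31 passed the filter on low signals (a mean at or above the 40th percentile, about 11.7 in signal) and were tested.

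There were 2 RLSC lines with 1 array apiece. MetE14/3 is 1 clone, B2, grown from a day 14 post coitum liver that carried the cyto-Met transgene. WTE14/1 was grown from a day 14 liver of wild-type genotype; its title gives this name, while its source field reads WT E14/3, and the title was followed. Both lines were selected for palmate colonies and expanded in DMEM with serum for about 50 generations before freezing. MMH-D3 was measured on 2 arrays, which the labels do not assign to separate cultures, so their spread may be technical. The labels give neither the genotype and age of the MMH-D3 donor nor the promoter of the transgene. All lines began in RPMI medium with serum, EGF, IGF-II and insulin on collagen-I. The labels add the later DMEM step for the RLSC lines alone, so line and culture medium cannot be told apart.

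The arrays formed pairs by their spiked-in controls. The 24 poly-A control probe sets, for RNA spiked in before labelling, had a median ratio of 10.6 (range 5.75 to 26.1) for MetE14/3 and MMH-D3 array 1 over WTE14/1 and MMH-D3 array 2. The 18 hybridization controls had a median ratio of 0.878. Each array pair holds 1 array of each group. The RLSC lines differ in origin as well as in pair, so line and pair cannot be told apart.

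Fatty acids are built in the cytosol. ATP citrate lyase (Acly) supplies acetyl-CoA, acetyl-CoA carboxylase makes malonyl-CoA, fatty acid synthase (Fasn) builds palmitate, and elongases and desaturases lengthen it and add double bonds. Acyl-CoA synthetases activate fatty acids for use, such as esterification to triglyceride, stored in droplets coated by perilipins, and transfer by the carnitine shuttle into mitochondria for β-oxidation. Hepatocytes carry out all of these steps, and nuclear receptors of the PPAR family regulate many of the genes.

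None of the 31 genes tested passed in RLSC against MMH-D3, in either direction. The whole table of 12598 genes held 115 calls (0.913%), 50 higher (0.397%) and 65 lower (0.516%), by limma with Benjamini-Hochberg adjustment at 0.05. At an unadjusted p under 0.05 there were 4 of the 31 genes (12.9%), beside 12.3% of all genes tested. These 4 were Plin2, Scd1, Ppard and Acsl5 in the fit reported, all with a negative difference. At this level 7.09% of all genes were lower in RLSC and 5.25% higher. The lowest adjusted p was 0.202, for Plin2. In RNA of whole cultures, fewer cells of a type and less RNA per cell cannot be told apart. Differences are RLSC minus MMH-D3 on the quantile-normalized log2(signal + 4) scale, each with the standard error (SE) of the fit, while signals are the deposited linear values.

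The arrays limit how small a difference could pass. The smallest fold among the 115 genes called was 3.92. The 95% interval excluded a 4-fold difference in either direction for 22 of the 31 genes (71.0%; 62.9% of all genes), among them all 3 genes tested in palmitate synthesis and all 7 in oxidation. It lay within 2-fold either way for 3 genes (9.68%; 5.45% of all genes), namely Acly, Elovl1 and Elovl5. For the rest, a missed threshold does not show that the groups were alike.

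**Figure D1:**
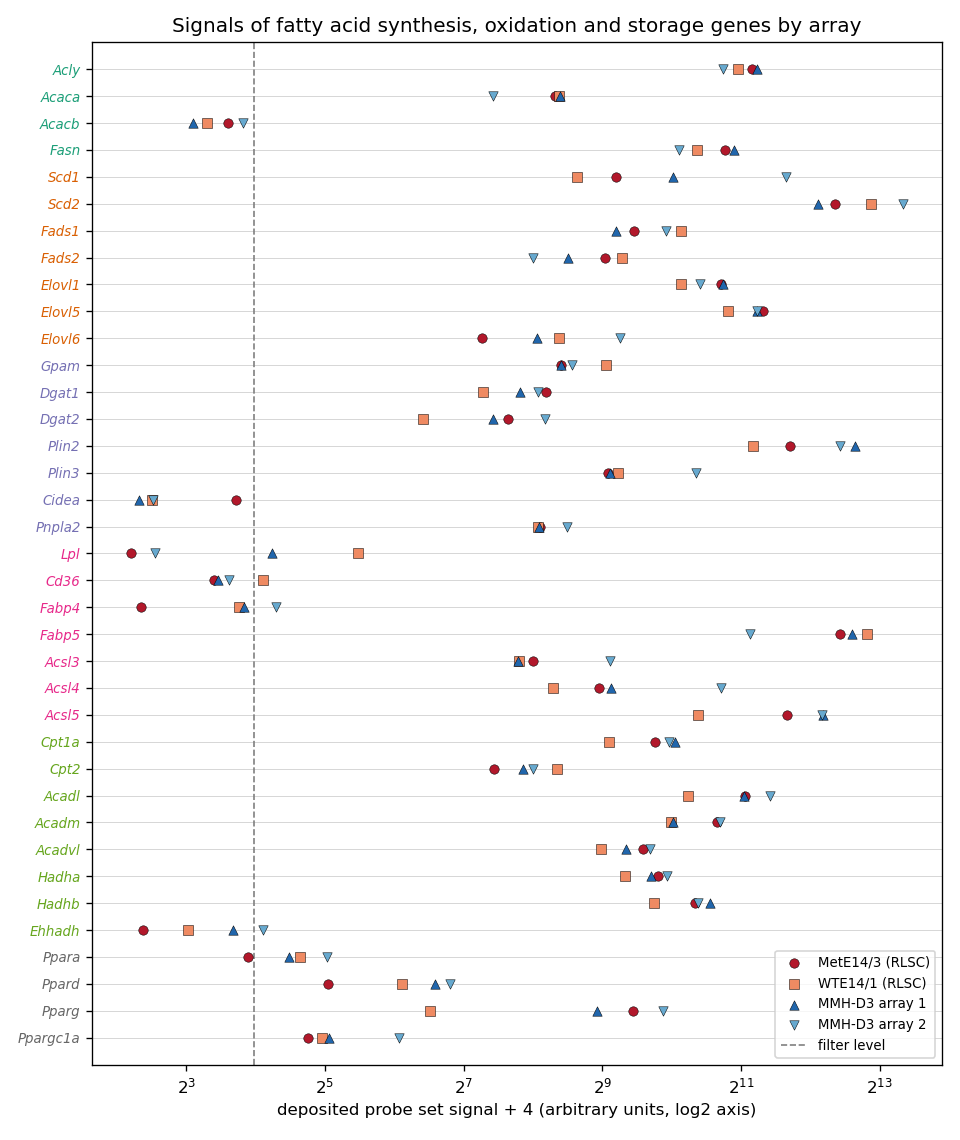
Deposited signal plus 4 (log2 axis) of the brightest probe set of each of 37 genes on the 4 arrays, with gene names coloured by role and a dashed line at the approximate filter level of 11.7 in signal. The RLSC lines and the MMH-D3 arrays interleave for most genes, and Acacb, Cidea, Lpl, Cd36, Fabp4 and Ehhadh did not pass the filter. Lpl and Cd36 still lie above its level in WTE14/1, as does Lpl in MMH-D3 array 1. Fabp4 and Ehhadh lie above it in MMH-D3 array 2.

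The groups overlapped for all 3 palmitate synthesis genes tested. Fasn, the multi-enzyme synthase, read 1733 on the MetE14/3 array and 1316 on the WTE14/1 array, against 1901 and 1096 on MMH-D3 arrays 1 and 2. Both RLSC values lay between the MMH-D3 arrays, and the difference was 0.14 (SE 0.38, limma adjusted p = 0.945). Its 95% interval ran from -0.79 to 1.06. Acly, which cleaves citrate to acetyl-CoA, averaged 2133 ± 217 in RLSC, with 2047 ± 486 for MMH-D3 (SD, n = 2 each). The difference of Acly was 0.16 (SE 0.31), with an interval of -0.59 to 0.90. The sign was shared by 4 of the 5 Acly probe sets that passed the filter. Acaca, the cytosolic acetyl-CoA carboxylase, read 315 and 327 in MetE14/3 and WTE14/1, while MMH-D3 arrays 1 and 2 read 332 and 167. MMH-D3 array 2 alone stood apart there, and the difference was 0.39 (SE 0.52). Acacb, the mitochondria-associated carboxylase, reached at most 8.1 in RLSC and 10.1 in MMH-D3 over 2 probe sets, and did not pass the filter.

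Among desaturases, Scd1 had the largest difference in size of the 31 genes. Scd1 makes oleate from stearate and is the main stearoyl-CoA desaturase of adult mouse liver. Its signals were 581 on the MetE14/3 array and 392 on the WTE14/1 array, against 1029 and 3211 on MMH-D3 arrays 1 and 2. Both RLSC lines lay below both MMH-D3 arrays, which were themselves 3.29-fold apart on the normalized scale. The difference was -1.93 (SE 0.62, limma adjusted p = 0.267), with a 95% interval of -3.43 to -0.43, and the second probe set had the same sign. It was -0.78 for MetE14/3 against MMH-D3 array 1 and -3.09 for WTE14/1 against array 2.

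Scd2, the paralogue best known from brain and from fetal and neonatal tissues, was bright on every array. Its signals were 5256 on the MetE14/3 array and 7460 on the WTE14/1 array, against 4424 and 10362 on those of MMH-D3, and the groups overlapped. The difference was -0.05 (SE 0.44), and 2 of its 3 probe sets had this sign.

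The front-end desaturases, which act in polyunsaturated fatty acid synthesis, had positive differences. Fads2, the Δ6 desaturase, read 519 on the MetE14/3 array and 621 on the WTE14/1 array, against 360 and 253 on those of MMH-D3. It was the single gene of the 31 that lay above both MMH-D3 arrays, all 3 of its probe sets had a positive difference, and the fold was 1.84 (difference 0.88, SE 0.43, limma adjusted p = 0.493). Fads1, the Δ5 desaturase, read 697 on the MetE14/3 array and 1124 on the WTE14/1 array, against 580 and 966 on those of MMH-D3, with a difference of 0.25 (SE 0.46).

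The elongases did not pass either. Elovl5, which elongates polyunsaturated chains, averaged 2165 ± 534 in RLSC, with 2401 ± 10.6 for MMH-D3 (SD, n = 2 each). Its difference was -0.09 (SE 0.31), with an interval of -0.85 to 0.66. Elovl1, an elongase of very long saturated chains, averaged 1394 ± 394 in RLSC, with 1529 ± 252 for MMH-D3 (SD, n = 2 each), a difference of -0.09 (SE 0.35) in an interval of -0.95 to 0.76. Elovl6, which takes palmitate to stearate, read 150 on the MetE14/3 array and 328 on the WTE14/1 array, against 262 and 605 on those of MMH-D3. Its groups overlapped, but WTE14/1 and MMH-D3 array 2 were each the higher of their group, and the difference was -0.91 (SE 0.59), or -0.89 for MetE14/3 against array 1 and -0.92 for WTE14/1 against array 2.

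In triglyceride assembly and storage, Plin2 came nearest to the threshold. Plin2 coats lipid droplets in most cells, hepatocytes included. Its signals were 3340 on the MetE14/3 array and 2309 on the WTE14/1 array, against 6396 and 5494 on those of MMH-D3, with no overlap. The MMH-D3 level was 2.02-fold that of RLSC on the normalized scale, a difference of -1.02 (SE 0.28, limma adjusted p = 0.202) with a 95% interval of -1.70 to -0.34. It was -0.84 for MetE14/3 against MMH-D3 array 1 and -1.19 for WTE14/1 against array 2, so both were below 0.

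Plin3, a perilipin that moves between cytosol and droplets, read 540 and 596 in MetE14/3 and WTE14/1, while MMH-D3 arrays 1 and 2 read 547 and 1300. MMH-D3 array 2 stood apart from the other 3 arrays, and the difference was -0.60 (SE 0.51). Pnpla2, the adipose triglyceride lipase, read 270 and 265 in the RLSC lines, while MMH-D3 arrays 1 and 2 read 268 and 354, a difference of -0.29 (SE 0.42). Its deposited signals overlap, although its normalized values lay below both MMH-D3 arrays. Cidea, a droplet fusion protein of brown fat, reached at most 9.2 in RLSC and 1.72 in MMH-D3 and did not pass the filter.

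Of the acyltransferases, Gpam, the mitochondrial enzyme of the first step of glycerolipid synthesis, read 334 on the MetE14/3 array and 527 on the WTE14/1 array, against 336 and 376 on those of MMH-D3 (difference 0.20, SE 0.44). Its 2 probe sets had opposite signs. Dgat1 and Dgat2 both esterify diacylglycerol to triglyceride. Dgat2 read 195 on the MetE14/3 array and 81.4 on the WTE14/1 array, against 167 and 285 on those of MMH-D3, with a difference of -0.95 (SE 0.61). For Dgat1 the signals were 287 and 151 in these lines, against 220 and 264 in MMH-D3, with a difference of -0.32 (SE 0.51). In both, WTE14/1 had the lowest signal of the 4 arrays, while MetE14/3 lay between the MMH-D3 arrays for Dgat2 and above both for Dgat1. A second, dimmer Dgat2 probe set read 152.2 and 111.6 in MetE14/3 and WTE14/1, against 154.5 and 218.5 in MMH-D3. Its deposited signals did not overlap (difference -0.63).

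Genes of uptake at the plasma membrane and in the circulation were dim on most arrays. Lpl, the lipase that frees fatty acids from lipoproteins, reached 40.5 in WTE14/1 but no more than 3.4 in MetE14/3, and at most 14.8 in MMH-D3. Cd36, a fatty acid translocase, reached at most 13.2 in RLSC and 25.7 in MMH-D3 over 3 probe sets, and Fabp4, the adipocyte and macrophage binding protein, 9.58 in RLSC and 15.6 in MMH-D3 over 4. No direction was read from these signals, and Lpl, Cd36 and Fabp4 did not pass the filter.

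Fabp5, an intracellular binding protein of skin and many cultured cells, was bright in both groups. Its signals were 5475 on the MetE14/3 array and 7192 on the WTE14/1 array, against 6228 and 2237 on those of MMH-D3. MMH-D3 array 2 stood apart from the other 3 arrays, and the difference was 0.79 (SE 0.46, limma adjusted p = 0.593).

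All 3 acyl-CoA synthetases tested had negative differences. Acsl5, a mitochondrial and endoplasmic reticulum enzyme of liver and intestine, read 3247 on the MetE14/3 array and 1330 on the WTE14/1 array, against 4647 and 4597 on those of MMH-D3. The groups did not overlap and the MMH-D3 arrays lay close together. The difference was -1.07 (SE 0.44, limma adjusted p = 0.402), with a 95% interval of -2.13 to -0.01. Acsl4, which prefers arachidonate, read 493 on the MetE14/3 array and 308 on the WTE14/1 array, against 553 and 1675 on those of MMH-D3. For Acsl4 the groups did not overlap either, and its dimmer probe sets had differences of -1.88 and -1.90. The difference of the brightest was -1.36 (SE 0.62, limma adjusted p = 0.458). It was -0.20 for MetE14/3 against MMH-D3 array 1 and -2.51 for WTE14/1 against array 2. Acsl3, a synthetase of lipid droplets, read 253 and 219 in the RLSC lines, while MMH-D3 arrays 1 and 2 read 216 and 546 (difference -0.64, SE 0.54), and 1 array, MMH-D3 array 2, stood apart.

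All 7 oxidation genes tested had a mean difference below 0 (48.0% of all genes), from -0.57 for Cpt1a to -0.003 for Acadm, and none passed. The direction was not shared by the array pairs. For MetE14/3 against MMH-D3 array 1, 3 of the 7 were below 0 (51.7% of all genes), with a median of 0.09. For WTE14/1 against array 2, 6 were below 0 (47.2% of all genes), with a median of -0.68. Cpt1a, the rate-limiting enzyme of mitochondrial import, read 859 on the MetE14/3 array and 545 on the WTE14/1 array, against 1055 and 995 on those of MMH-D3 (difference -0.57, SE 0.40). A second, dimmer Cpt1a probe set read 455 on the MetE14/3 array and 66.5 on the WTE14/1 array, against 200 and 170 in MMH-D3. Its RLSC lines bracketed both MMH-D3 arrays, unlike those of the first. Cpt2, the inner membrane partner, read 170 on the MetE14/3 array and 323 on the WTE14/1 array, against 227 and 252 on those of MMH-D3 (difference -0.10, SE 0.48).

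The acyl-CoA dehydrogenases take the first step of each β-oxidation cycle. Acadl, for long chains, read 2125 on the MetE14/3 array and 1207 on the WTE14/1 array, against 2113 and 2719 on those of MMH-D3 (difference -0.52, SE 0.38). Acadm, for medium chains, averaged 1306 ± 422 in RLSC, with 1345 ± 435 for MMH-D3 (SD, n = 2 each). Acadvl, for very long chains, averaged 634 ± 186 in RLSC, with 731 ± 122 for MMH-D3 (SD, n = 2 each), a difference of -0.25 (SE 0.41). In all 3 dehydrogenases WTE14/1 had the lowest signal of the 4 arrays.

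The trifunctional protein subunits Hadha and Hadhb complete the cycle for long chains. Hadha averaged 763 ± 180 in RLSC, with 901 ± 103 for MMH-D3 (SD, n = 2 each), a difference of -0.25 (SE 0.38). Hadhb read 1292 on the MetE14/3 array and 850 on the WTE14/1 array, against 1492 and 1332 on those of MMH-D3 (difference -0.38, SE 0.36), and 2 of its 3 probe sets had this sign. Ehhadh, the peroxisomal bifunctional enzyme and a known PPARα target in liver, reached at most 4.15 in RLSC and 13.3 in MMH-D3 and did not pass the filter.

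The PPAR receptors and their coactivator all had negative differences, and most were dim. Pparg, the adipogenic receptor, read 692 on the MetE14/3 array and 87.3 on the WTE14/1 array, against 483 and 933 on those of MMH-D3. MetE14/3 lay between the MMH-D3 arrays and WTE14/1 far below them. The difference was -1.55 (SE 1.00, limma adjusted p = 0.637), or 0.46 for MetE14/3 against array 1 and -3.57 for WTE14/1 against array 2.

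Ppard, the most widely expressed of the receptors, read 28.9 on the MetE14/3 array and 65.2 on the WTE14/1 array, against 92.3 and 108 on those of MMH-D3, with no overlap. Its difference was -1.28 (SE 0.51, limma adjusted p = 0.387). Ppara, the fasting-responsive receptor that drives hepatic oxidation genes, read 10.9 and 20.8 in the RLSC lines, while MMH-D3 arrays 1 and 2 read 18.4 and 28.8. These lie close to the filter level of 11.7 and the deposited signals overlap (difference -0.70, SE 0.55). Ppargc1a, a coactivator of mitochondrial genes, read 22.9 on the MetE14/3 array and 27.0 on the WTE14/1 array, against 29.4 and 62.9 on those of MMH-D3. All 5 of its probe sets had a negative difference, which was -0.95 (SE 0.54) for the brightest.

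**Figure D2:**
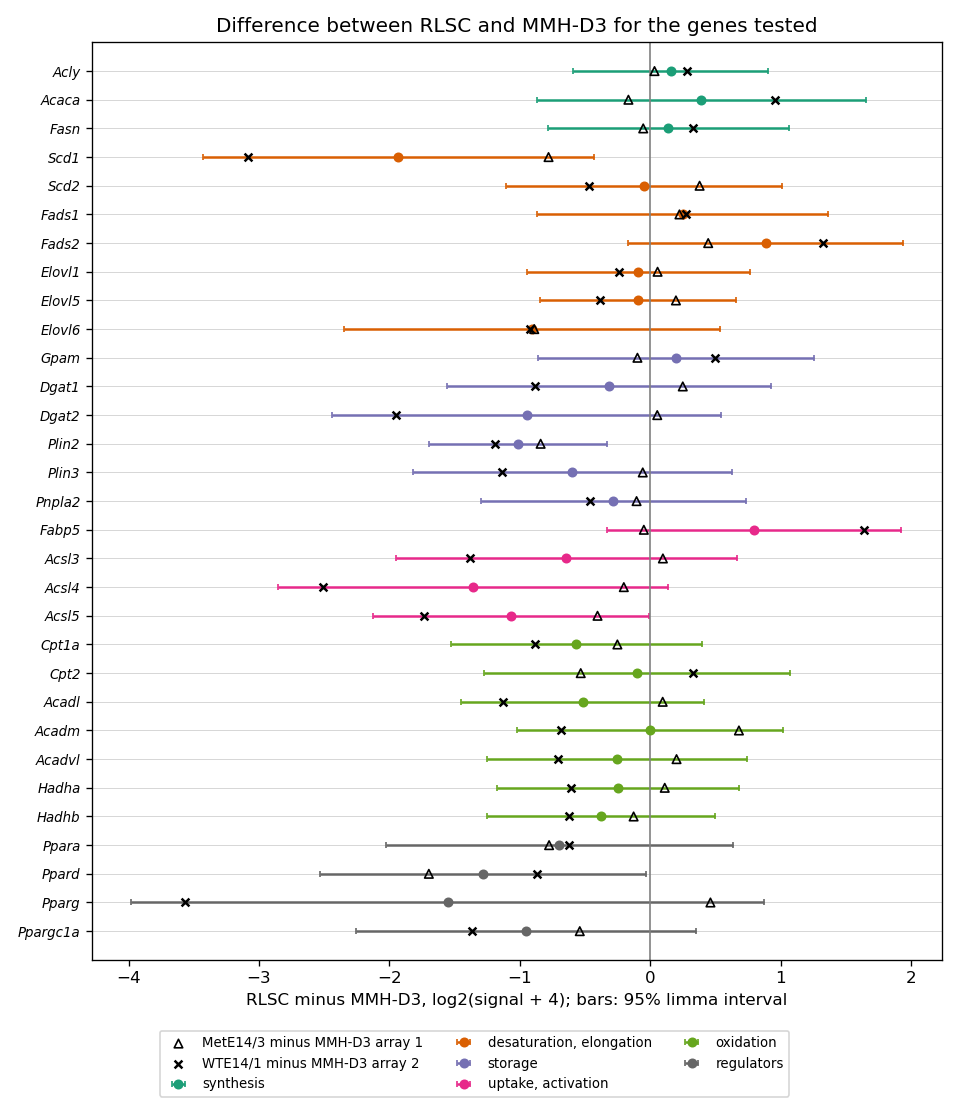
Difference RLSC minus MMH-D3 (log2 scale, filled points) with its 95% limma interval for the 31 genes tested, coloured by role, with the differences within each array pair as open triangles and crosses. The points of 24 genes lie left of 0, and the crosses (WTE14/1 minus MMH-D3 array 2) lie further left than the triangles for most of them.

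Of the 31 genes tested, 24 (77.4%) had a difference below 0, beside 48.0% of all genes tested. Normalized RLSC values lay below both MMH-D3 arrays for 10 genes (32.3%; 21.3% of all genes) and above both for 1 (3.23%; 20.8% of all genes). In the deposited signals these counts were 8 (17.2% of all genes) and 1 (23.1%). The median difference of the 31 genes was -0.32, beside 0.03 over all genes. By role, the medians were 0.16 for palmitate synthesis, -0.09 for desaturation and elongation, -0.46 for storage, -0.86 for uptake and activation, -0.25 for oxidation and -1.12 for the PPAR receptors and coactivator.

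The lean below 0 was uneven between the array pairs. Between MetE14/3 and MMH-D3 array 1 the median difference of the 31 genes was -0.06, with 17 genes (54.8%) below 0, and between WTE14/1 and MMH-D3 array 2 it was -0.68, with 23 genes (74.2%) below 0. Over all genes the within-pair medians were -0.02 and 0.06, with 51.7% and 47.2% of genes below 0. In 15 of the 31 genes the pairs had the same sign, beside 7605 of all 12598 genes tested.

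**Figure D3:**
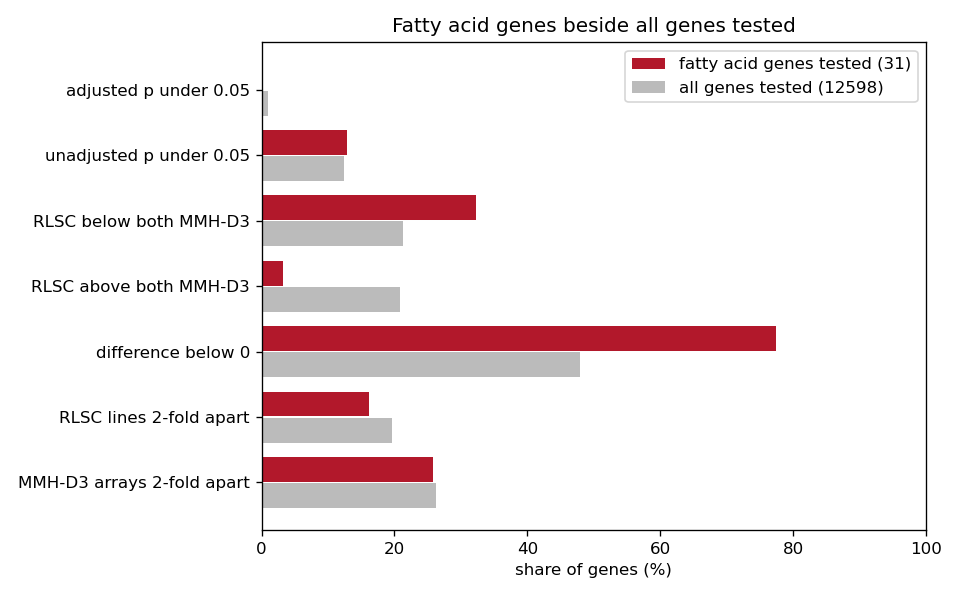
Share of genes (%) meeting each description, for the 31 fatty acid genes tested (red) and for all 12598 genes tested (grey). The shares with an unadjusted p under 0.05 are 12.9% and 12.3%, while differences below 0 make up 77.4% and 48.0%.

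MetE14/3 and WTE14/1 were set against each other without a test, as each had 1 array. A single gene, Pparg, was at least 4-fold apart, with 8.67-fold more normalized signal in MetE14/3. Over all genes 5.11% were that far apart. None of the 31 genes was 4-fold apart between the MMH-D3 arrays, beside 5.96% of all genes. At 2-fold, 5 genes differed between the lines (19.6% of all genes) and 8 between the MMH-D3 arrays (26.3% of all genes). The first were Pparg, Dgat2 (2.68-fold), Acsl5 (2.36-fold) and Dgat1 (2.03-fold), with more in MetE14/3 (10.3% of all genes), and Elovl6, with more in WTE14/1 (2.08-fold; 9.30% of all genes).

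The genes 2-fold apart between the MMH-D3 arrays were others, except Elovl6. Acaca and Fabp5 were higher on array 1, and Scd1, Scd2, Elovl6, Plin3, Acsl3 and Acsl4 on array 2. All but 1 of the 7 oxidation genes were higher in MetE14/3 than in WTE14/1, the exception being Cpt2, with a median of 0.59 over the 7. Of the 31 genes, 20 were higher in MetE14/3 (median 0.33), beside 6282 of all 12598 genes (median -0.001). The gap between the lines was larger than that between the MMH-D3 arrays for 17 of the 31 genes, beside 44.5% of all genes.

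**Figure D4:**
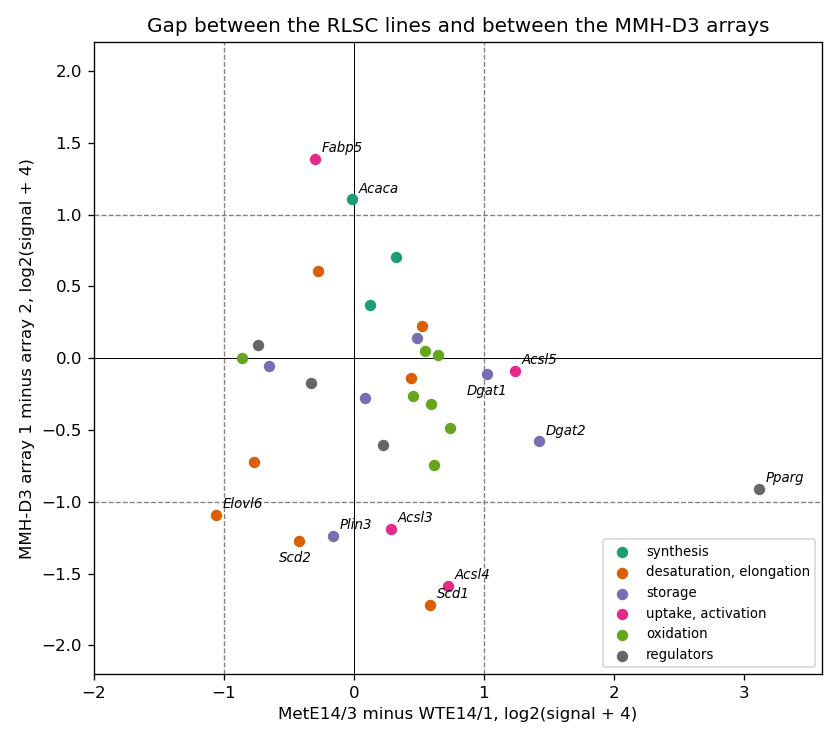
Gap between the RLSC lines (MetE14/3 minus WTE14/1, x axis) against the gap between the MMH-D3 arrays (array 1 minus array 2, y axis), both on the log2 scale, for the 31 genes, coloured by role. Dashed lines mark 2-fold, beyond which genes are named, and Pparg lies furthest right, at 3.12.

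A wider list of 123 other genes of fatty acid metabolism gave no call either, beside 0.913% of all genes tested. Of these, 112 had a probe set and 96 were tested. An unadjusted limma p under 0.05 was found for 18 (18.8%, beside 12.3% of all genes). Of the 18, 14 were lower (7.09% of all genes) and 4 higher (5.25% of all genes). The median of the 96 was -0.36, with 69 below 0 (71.9%, beside 48.0% of all genes). Among 15 tested genes of synthesis and elongation (median -0.15), the brightest were Hacd1 (1.03, SE 0.50), a hydroxyacyl-CoA dehydratase, and Hsd17b12 (-0.15, SE 0.29), a ketoacyl-CoA reductase. Among 19 of glycerolipid synthesis and droplets (median -0.34) they were the acyltransferases Agpat4 (-0.99, SE 0.44) and Agpat5 (0.35, SE 0.49).

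Of 9 lipolysis genes (median -0.50), the brightest were the phospholipase Pnpla8 (-0.84, SE 0.54) and Abhd5 (-0.995, SE 0.40), the coactivator of the Pnpla2 lipase. Of 9 genes of uptake and binding (median -0.40), they were Dbi (-0.05, SE 0.32), the acyl-CoA binding protein, and Acbd3 (-0.13, SE 0.42). Of 30 oxidation genes (median -0.43), they were Hadh (-1.01, SE 0.26, limma adjusted p = 0.178), the short-chain hydroxyacyl-CoA dehydrogenase, and Etfa (-0.18, SE 0.42), an electron transfer flavoprotein subunit. Of 14 regulators (median -0.29), they were the Mediator subunit Med1 (1.81, SE 0.45, limma adjusted p = 0.165) and the coactivator Pprc1 (0.39, SE 0.45).

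The lowest adjusted p values of this wider list, named after the values were seen, were those of Mid1ip1 and Me1. Mid1ip1, which promotes acetyl-CoA carboxylase activity, read 1353 on the MetE14/3 array and 1002 on the WTE14/1 array, against 3899 and 3893 on those of MMH-D3 (-1.68, SE 0.31, limma adjusted p = 0.0792). Me1, the malic enzyme that makes NADPH for synthesis, read 910.3 and 691 in the RLSC lines, while MMH-D3 arrays 1 and 2 read 2717 and 5085 (-2.17, SE 0.44, limma adjusted p = 0.100). In both the groups did not overlap.

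Markers of the cell types that use these genes were read on the same arrays. Of 9 hepatocyte markers with a probe set, 5 passed the filter. Their summed signals over the 9 were 308.7 and 79.9 in MetE14/3 and WTE14/1, against 4054 and 8907 in MMH-D3. Of these, Apob passed as lower in RLSC (limma adjusted p = 0.0374). Alb read 1.7 and 2.91 in the RLSC lines and 44.7 and 440 on the MMH-D3 arrays, and Tat and Cps1 did not pass the filter.

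The 6 adipocyte markers with a probe set summed to 294 and 174 in the RLSC lines and 61.4 and 361 on the MMH-D3 arrays, with 4 past the filter. Of those past the filter, Plin4 had a difference of 2.73, Retn -0.50, Cidec -0.98 and Lipe -1.18. Plin4 made up most of the MetE14/3 sum, at 243.2. Cidec and Lipe made up most of the sum on MMH-D3 array 2, at 156.8 and 142.6. Adipoq and Lep were near 0 on every array, at no more than 10.7. The 8 macrophage markers, 4 past the filter, summed to 477 and 386 in RLSC, against 1910 and 3778 in MMH-D3, mostly from Cd14, while Ptprc read at most 13.7. Of the macrophage markers past the filter, Cd14 had a difference of -3.20, Adgre1 -0.42, Cd68 -0.08 and Csf1r 0.0002. The hepatocyte sums of MMH-D3 came mostly from Apob (2879 and 4647) and Hnf4a (1049 and 1687). On MMH-D3 array 2, Apoa1 exceeded Hnf4a, at 1951, against 44.6 on array 1. Hepatocyte and macrophage sums were larger on both MMH-D3 arrays than in either RLSC line, but few genes carried them. The 7 endothelial markers summed to 64.5 and 84.3 in RLSC, against 38.5 and 106 in MMH-D3, with 2 past the filter. The 7 stellate or fibroblast markers, 3 past the filter, summed to 293 and 246 in RLSC, against 53.3 and 120 in MMH-D3. The RLSC sums came mostly from Pdgfrb, at 248.1 and 65.8 against 0.2 and 1.19, and in WTE14/1 from Col3a1, at 120.2. Des, which passed the filter, averaged more in MMH-D3 (difference -0.83). Lrat, Rgs5, Col1a1 and Dcn did not pass it, and no direction was read from them. For 5 brown adipocyte or muscle markers, 2 past the filter, the sums were 50 and 61.04 in RLSC, against 62.2 and 95.7 in MMH-D3. The part of cell state in the differences given here was not tested.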

How the data were processed

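The authors deposited probe set signals as linear intensity values made with GCOS, which is Affymetrix software, per the submitters' processing notes. Its version and settings: not given in the sources used here. Each of the 4 arrays was prepared from 5 μg of total RNA, per the labels. The deposited intensity had a mean of 200.001 on every array after 2% of probe sets was trimmed from each end. Median signals ranged from 16.9 to 28.0. The number of arrays limits the precision.

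Values entered as log2(value + 4), which understates folds of dim genes, and were quantile normalized, since array medians differed by 0.61. Left out were 64 control probe sets and those with a mean under the 40th percentile. Each gene was represented by its brightest probe set, its single symbol checked by Entrez identifier against RefSeq (GRCm38.p6). limma 3.58.1 in R 4.3.3 (lmFit, eBayes with an intensity trend) compared 2 RLSC with 2 MMH-D3 arrays, two-sided, with 2 residual and 4.23 prior degrees of freedom. The labels name no separate cultures, so the MMH-D3 spread behind the p-values may be technical. The same p-values also rest on the gap between MetE14/3 and WTE14/1, which differ in origin and in array pair. The fit was tested on simulated data whose differences were larger than any seen in the fatty acid genes, with no array pairs. That run does not show how often differences of the size seen here would pass. The genes, lists and tests were chosen with earlier results of these data known. All 38 genes were to be described. From each list of other pathway genes, up to 3 passing genes were to be named or, where none passed, the 2 brightest; Mid1ip1 and Me1 fall outside this rule. Alternatives covered scaling, pseudocount, filter, probe set choice, array pair and each array left out.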

Additional observations from a re-analysis of the deposited data

How the results depend on the processing

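No fatty acid gene passed under any of the alternative fits to all 4 arrays. Some used no quantile normalization, pseudocounts of 1 and 16, no filter or a filter at the 60th percentile. Others used the median of probe sets, probe set level, the poly-A pair as a block or no intensity trend. Their lowest adjusted p ranged from 0.147 to 0.347. Each array was also left out in turn. Leaving out either MMH-D3 array leaves 1 array in that group, so those fits bear only on the size and sign of the differences. Leaving out WTE14/1 left 13 calls, against 195 without MetE14/3. The median difference ranged from -0.52 to -0.15 with an array left out. The count of other pathway genes called ranged from 0 to 1, the 1 being the lipase inhibitor Angptl4 without MetE14/3. The count of genes 4-fold apart between the RLSC lines was 1, but 2 without a filter (Lpl added) and 2 with the median of probe sets (Cpt1a added). With an array left out, 14 of the 31 differences changed sign and none of them was called. Their ranges were -0.0301 to 0.341 for Acly, -0.16 to 0.95 for Acaca, -0.22 to 0.49 for Fasn, -0.68 to 0.59 for Scd2, -0.14 to 0.63 for Fads1, -0.35 to 0.17 for Elovl1, -0.32 to 0.13 for Elovl5, -0.13 to 0.52 for Gpam, -0.83 to 0.19 for Dgat1, -1.22 to 0.0201 for Plin3, -0.53 to 0.33 for Cpt2, -0.38 to 0.37 for Acadm, -0.551 to 0.0407 for Acadvl and -3.11 to 0.00435 for Pparg. The remaining fits over all 4 arrays changed no sign. The differences within the array pairs shared a sign in 15 of the 31 genes, beside 7605 of all 12598 genes. Over all genes, calls numbered 115 in the fit reported, 153 without quantile normalization, 172 with the pair as a block, 179 at probe set level and 9 without a filter. The labels give the RLSC lines no replicate numbers, so the paired fit, with the array pair as a block, rests on the poly-A controls alone. Its lowest adjusted p among the fatty acid genes was 0.147. Which genes had an unadjusted limma p under 0.05 also depended on the fit. Without the intensity trend, this p was 0.0558 for Plin2 and 0.101 for Acsl5. For Ppard it was 0.108 without quantile normalization, 0.0691 without a filter and 0.0538 with the filter at the 60th percentile. Without a filter it was 0.0511 for Acsl5. With the median of probe sets, it was 0.0307 for Acsl4.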
